A study of Mus musculus with 33 samples.

Results

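The genes described here are 37 mouse genes of the unfolded protein response and of protein folding in the endoplasmic reticulum (ER), out of 55376 gene symbols counted in sorted blood stem and progenitor cells of old mice. They were taken by symbol, and the set was drawn up because Herpud1, Hspa5, Dnajb9 and Xbp1 had lower values in mice given nicotinamide riboside (NR), a precursor of NAD+. The comparisons of mice with and without NR therefore chose the genes and are given as a description without tests. The comparisons between cell types, and of mice after NR was withdrawn, were not the comparison that chose them, although they use the same libraries. Comparisons within mice given NR therefore reuse values that the choice used for Herpud1, Hspa5, Dnajb9 and Xbp1.

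The study asked how NR given to old mice changed RNA levels in 3 sorted cell types: hematopoietic stem cells (HSCs), progenitors of the granulocyte and monocyte line (GMPs), and the common progenitors of lymphoid cells (CLPs). All animals were C57BL/6 males that were 24 to 29 months old, as given in the methods of the study. Old untreated mice (O-WT) received no supplement, O-NR mice received NR in drinking water for 4 to 6 weeks, and O-NR-RC mice had NR removed for 2 months after treatment. Cohort 2 held 4 O-WT and 4 O-NR libraries of each of the 3 cell types, and cohort 1 held HSC libraries of 4 O-NR, 3 O-NR-RC and 2 O-WT samples. The HSC sort kept propidium iodide-negative, lineage-negative, cKit+, Sca1+, CD34-, Flk2- and CD150+ cells, and the study defines CLPs as lineage-negative, Il7ra+ and Flk2+ and GMPs as lineage-negative, Sca1-, cKit+, CD34+ and Fcgr+ cells. One label field names the GMP libraries common myeloid progenitor. No source states that each library was a separate mouse, so the p-values measure the spread between these libraries. In bulk libraries of sorted cells, fewer cells of a type and less RNA per cell cannot be told apart.

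Secreted and membrane proteins fold in the ER, where the Hsp70 chaperone BiP (gene Hspa5), lectin chaperones and protein disulfide isomerases act on them, and proteins that fail to fold are sent back to the cytosol for degradation. When unfolded proteins build up, the membrane sensors IRE1 (Ern1), PERK (Eif2ak3) and ATF6 start the unfolded protein response: IRE1 splices Xbp1 mRNA into a form that encodes an active transcription factor, PERK phosphorylates eIF2-alpha and so favours translation of Atf4, and ATF6 is cut into a transcription factor. Hematopoietic stem cells are known for a low rate of protein synthesis, and granulocyte-forming cells for making large amounts of secretory and granule protein. Counts per gene do not separate spliced from unspliced Xbp1, so no splicing is reported.

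Many of these genes are known targets of the ER stress response element (ERSE, searched as CCAAT, any 9 bases, then CCACG), which ATF6 binds together with NF-Y, and of ERSE-II (searched as ATTGG, any 1 base, then CCACG). Promoters of 300 bases (250 before and 50 from the RefSeq start site, GRCm38.p6) were given for 32 of the 37 genes, all but Atf6, Hyou1, Manf, Derl1 and Sec61a1. ERSE was found on either strand in 9 of the 32 genes (28.1%) against 37 of 27025 genes in the whole table (0.137%), and ERSE was first defined on genes of this kind. The 9 genes were Hspa5, Hsp90b1, Calr, Canx, Pdia6, Creld2, Dnajc3, Syvn1 and Derl3. ERSE-II was found in Herpud1 and Dnajb11 (12 genes in the table, 0.0444%). The letters TTGCATCA, a form of the composite C/EBP-ATF site that ATF4 and CHOP are known to use, were found in Herpud1 and Chac1 (279 genes in the table, 1.03%), and TGACGTGG, a form of the UPR element, in none of the 32 (193 genes in the table, 0.714%). The stretches below show the motif in capitals with 20 bases on each side, 5′ to 3′ along the strand of the gene. They are shown because they differ among the genes that follow: the most abundant chaperones hold ERSE, Herpud1 holds ERSE-II, and Xbp1 and Dnajb9 hold neither. Where the motif lies on the opposite strand, as in Calr, the capitals read as its reverse complement. Each match is a description of letters and not of a bound site.
Hspa5 ERSE, chr2:34772005-34772063, + strand: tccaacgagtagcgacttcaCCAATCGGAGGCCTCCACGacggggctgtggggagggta
Hsp90b1 ERSE, chr10:86705618-86705676, - strand: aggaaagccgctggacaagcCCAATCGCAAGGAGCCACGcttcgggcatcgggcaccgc
Calr ERSE, chr8:84847055-84847113, - strand: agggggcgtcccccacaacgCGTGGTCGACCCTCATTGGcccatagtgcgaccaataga
Pdia6 ERSE, chr12:17266471-17266529, + strand: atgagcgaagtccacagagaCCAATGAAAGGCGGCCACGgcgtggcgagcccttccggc
Herpud1 ERSE-II, chr8:94386357-94386407, + strand: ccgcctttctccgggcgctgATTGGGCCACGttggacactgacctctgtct
Dnajb11 ERSE-II, chr16:22857832-22857882, + strand: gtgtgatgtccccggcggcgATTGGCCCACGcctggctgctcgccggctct
Chac1 C/EBP-ATF, chr2:119351029-119351076, + strand: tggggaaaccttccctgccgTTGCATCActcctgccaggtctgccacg

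In cohort 2, HSC libraries held 8434214 to 14479453 counted reads, CLP libraries 4792380 to 12058957 and GMP libraries 11755798 to 18213674, and cohort 1 libraries held 8897256 to 23816042. The labelled cell types fitted their markers: the mean of 8 of 8 HSC, 6 of 6 CLP and 7 of 7 GMP marker genes was highest in its own cell type, in O-WT and in O-NR. Libraries that stand apart touch the genes described here in both cohorts. In cohort 2, the O-WT HSC library of replicate 4 had a summed level of 753 CPM (read counts divided by the library's total after TMM scaling, on the usual CPM scale) over 14 plasma and B cell markers, against 90.9 to 243 in the other O-WT HSC libraries and 45.1 to 144 in the O-NR HSC libraries. In cohort 1, 4 of the 9 libraries (O-NR replicates 1 and 2, O-NR-RC replicates 2 and 3) had a summed olfactory and vomeronasal receptor level of 10621 to 11175 CPM, against 6429 to 9025 in the other 5, and had lower sums of the 37 genes than those 5 (values given with cohort 1). Values without these libraries are given for some results only, among them those of Xbp1 and Hspa5 in cohort 2.

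ER folding and response genes took up between 0.285% and 0.406% of all reads in HSC libraries, between 0.285% and 0.410% in CLP libraries and between 0.989% and 1.33% in GMP libraries of cohort 2. Their summed level was 4.29 times higher in O-WT GMPs than in O-WT HSCs (14402 against 3354 CPM) and 4.63 times higher than in O-WT CLPs (3114 CPM). The share in the GMP libraries did not overlap that in the other cell types. The mean level was highest in GMPs for 32 of the 37 genes in O-WT. The exceptions were Ddit3, Ppp1r15a and Trib3, highest in HSCs, and Chac1 and Derl3, highest in CLPs.

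Per kilobase of exon, the calcium-binding lectin chaperone Calr was the most abundant of the 37 in O-WT HSCs, at 136 ± 42.1 CPM per kb (SD, n = 4). It was followed in HSCs by the ER Hsp90 paralog Hsp90b1 (85.4 ± 20.6 CPM per kb), the disulfide isomerase Pdia3 (74.1 ± 12.1), the lectin Canx (71.5 ± 15.2) and Hspa5 (70.7 ± 10.2), and these last 4 levels lay within each other's spread. Xbp1 stood at 36.2 ± 15.8 CPM per kb. The sensors were far lower, Ern1 at 15 ± 2.09, Eif2ak3 at 6.61 ± 0.576 and Atf6 at 5.71 ± 0.865 CPM per kb. At the bottom stood Chac1, which degrades glutathione, at 1.25 ± 0.292 and the degradation factor Derl3 at 0.834 ± 0.644 CPM per kb. In O-WT GMPs Calr reached 1126 ± 334 CPM per kb, followed by Hsp90b1 (408 ± 96.4), the disulfide isomerase P4hb (386 ± 76.7) and Hspa5 (362 ± 83.0), which lay within each other's spread, and Pdia3 (278 ± 57.1).

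**Figure D1:**
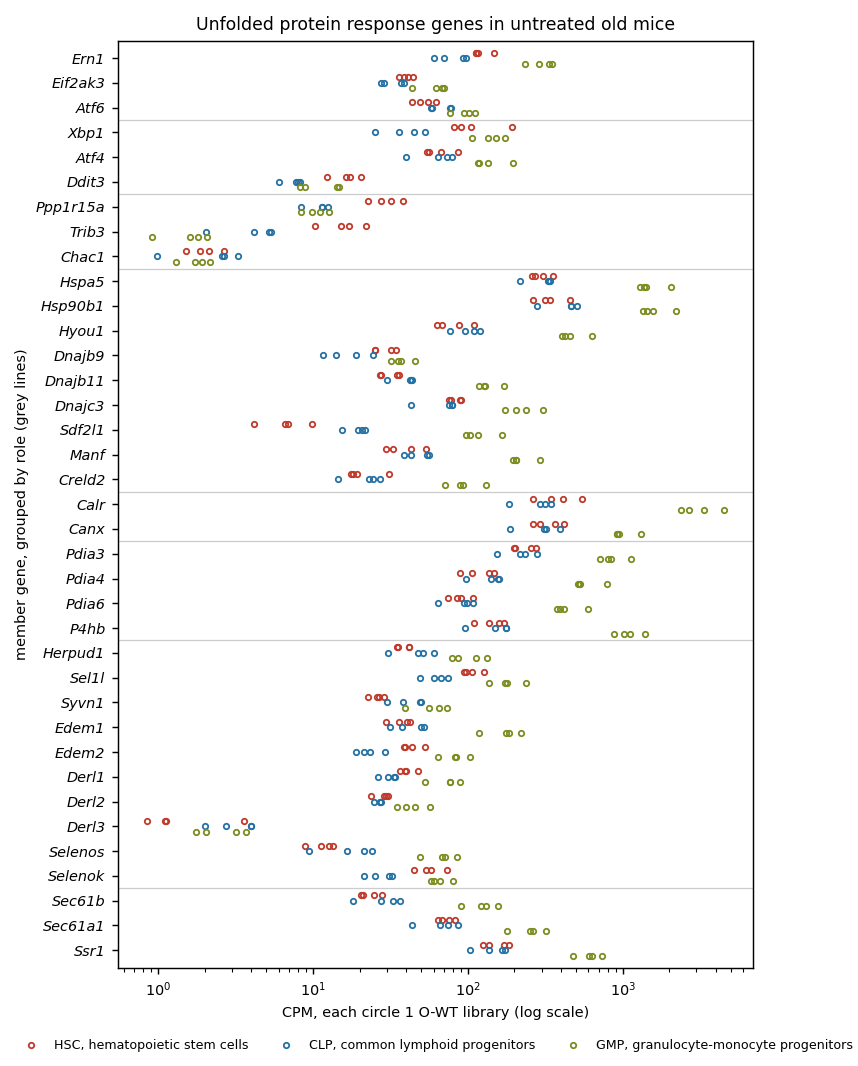
Level of each of the 37 genes in the 12 O-WT libraries of cohort 2, in CPM on a log axis, with 1 point per library and genes ordered by role (HSC red, CLP blue, GMP green). GMP points lie to the right for chaperones, disulfide isomerases and translocon genes, while Trib3 and Ppp1r15a have their highest points in HSCs.

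HSCs had lower levels of ER folding machinery than GMPs. In O-WT, 29 of the 37 genes were lower in HSCs (78.4%, against 19.4% of the 22573 genes tested) and 2 were higher (5.41%, against 23.7%), at an adjusted p below 0.05 by the quasi-likelihood test of edgeR, with p-values adjusted by Benjamini and Hochberg's method. The median log2 fold change of the 37 genes was -1.46, against 0.42 for all genes tested, a gap of -1.88. The median over all genes in O-WT moved with the scaling, to 0.12 with DESeq2 size factors and 0.57 with upper quartile scaling. Each log2 fold change between HSCs and GMPs is therefore to be read against 0.42 in O-WT and against 0.26, the median of all genes, in O-NR. In O-NR mice, which are other mice but are compared in the same fit, 29 genes were again lower (background 16.1%) and 3 were higher (background 20.4%), and 28 genes were lower in both treatments (background 15.6%). The 29 genes include Hspa5, Herpud1 and Xbp1, whose lower O-NR values prompted the choice.

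The 3 sensors were all lower in O-WT HSCs than GMPs. Ern1 stood at 148, 117, 113 and 113 CPM in the 4 O-WT HSC libraries and at 290, 337, 349 and 233 CPM in the 4 O-WT GMP libraries. No HSC library reached the GMP range (log2 fold change -1.29 ± 0.18, SE, adjusted p = 6.13e-08). Atf6 averaged 52.7 ± 7.99 CPM in HSCs and 95.8 ± 14.6 in GMPs (log2 fold change -0.85 ± 0.15, adjusted p = 1.2e-05). Eif2ak3 averaged 39.8 ± 3.47 and 61.0 ± 12.2 CPM (-0.60 ± 0.15, adjusted p = 0.00122), and in O-NR its difference of -0.25 ± 0.15 did not pass (adjusted p = 0.219), except with only the 8 libraries compared (-0.34, adjusted p = 0.0055).

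Of the 3 transcription factors, Atf4 alone was lower in O-WT HSCs (66.1 ± 14.5 against 142 ± 37.8 CPM, log2 fold change -1.09 ± 0.19, adjusted p = 4.25e-06). Xbp1 was at 90.1, 105, 81.7 and 193 CPM in O-WT HSCs and at 134, 173, 151 and 106 CPM in O-WT GMPs. These groups overlapped, because the fourth HSC library lay above every GMP library, and the difference of -0.25 ± 0.23 did not pass (adjusted p = 0.371). Without that library, the one with the high plasma and B cell marker sum, the difference was -0.76 ± 0.24 (adjusted p = 0.00808). In O-NR the fitted difference of Xbp1 was -1.13 ± 0.23. That value is a description, because low O-NR values of Xbp1 helped to choose the genes, and it does not bear on the O-WT comparison. Ddit3, which encodes the PERK-branch factor CHOP, was at 20.4, 12.2, 17.2 and 16.4 CPM in O-WT HSCs and 8.25, 14.2, 8.90 and 14.7 CPM in O-WT GMPs. The ranges overlapped and the log2 fold change of 0.54 ± 0.23 missed the threshold (adjusted p = 0.0505), while a fit with the replicate block passed it (0.57, adjusted p = 0.0489) and so did O-NR (1.30 ± 0.23, adjusted p = 1.07e-05). Ddit3 also passed without O-WT GMP replicate 2 or 4 (adjusted p = 0.0348 and 0.0212), with upper quartile scaling (adjusted p = 0.0204) and with only the 8 libraries compared (adjusted p = 0.0356). Its log2 fold change in the main fit lay only 0.12 above the median of all genes in O-WT, and 1.03 above it in O-NR. With upper quartile scaling the median of all genes in O-WT was itself 0.57.

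Among the outputs of the PERK branch, Trib3 and Ppp1r15a ran the other way. Trib3, a pseudokinase induced by ATF4 and CHOP, was at 17.0, 10.3, 15.2 and 22.1 CPM in O-WT HSCs and at 1.60, 2.05, 0.907 and 1.79 CPM in O-WT GMPs, where 11 to 26 reads were counted per library. The groups were far apart (log2 fold change 3.35 ± 0.31, adjusted p = 3.79e-12). Ppp1r15a (GADD34), the phosphatase subunit that reverses eIF2-alpha phosphorylation, was at 37.9, 22.7, 27.3 and 31.7 CPM in O-WT HSCs and 9.78, 12.6, 8.32 and 11.1 CPM in O-WT GMPs. No library of either group entered the range of the other (log2 fold change 1.53 ± 0.20, adjusted p = 2.76e-08). Chac1 stayed near 2 CPM in both and did not pass (0.21 ± 0.46, adjusted p = 0.710, median of all genes 0.42). Genes summed as markers of cell handling (Fos, Jun, Junb, Egr1, Dusp1 and Ier2) were also higher in HSCs. Their sum was 131 to 220 CPM in O-WT HSCs, 58.4 to 108 in O-WT CLPs and 54.5 to 123 in O-WT GMPs. In O-NR it was 136 to 219, 67.6 to 88.8 and 56.9 to 94.5 CPM. The part of handling in the levels of Trib3, Ppp1r15a and Ddit3 was not tested.

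Among the 9 Hsp70 and Hsp90 chaperones and partners, 8 were lower in O-WT HSCs than in GMPs. The BiP partner Sdf2l1 had the largest difference of all 37, at 4.14, 6.63, 6.87 and 9.90 CPM in HSCs and at 104, 166, 116 and 97.7 CPM in GMPs. Every GMP library was far above every HSC library (log2 fold change -4.11 ± 0.21, adjusted p = 1.13e-19). Hspa5 was at 305, 273, 261 and 357 CPM in HSCs and at 1369, 2052, 1410 and 1292 CPM in GMPs, groups that did not overlap (-2.34 ± 0.20, adjusted p = 5.28e-13, and -2.59 without O-WT HSC replicate 4). Hyou1, an ER nucleotide exchange factor, averaged 82.2 ± 21 and 480 ± 103 CPM (-2.53 ± 0.20, adjusted p = 2.39e-14). Dnajb9 (ERdj4), a co-chaperone of BiP, was the exception, at 34.4, 25.3, 31.9 and 25.1 CPM in HSCs and 36.9, 45.4, 35.5 and 31.9 CPM in GMPs. Its ranges overlapped (-0.35 ± 0.18, adjusted p = 0.119), although it passed with DESeq2 size factors (-0.62, adjusted p = 0.0252) and the DESeq2 test (adjusted p = 0.0266).

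Both lectin chaperones and all 4 disulfide isomerases were lower in O-WT HSCs. Calr was at 411, 262, 342 and 548 CPM in HSCs and at 2668, 4552, 2392 and 3363 CPM in GMPs. The lowest GMP library was above the highest HSC library (log2 fold change -3.04 ± 0.24, adjusted p = 2.66e-14). P4hb was at 171, 109, 137 and 159 CPM in HSCs and at 1109, 1401, 1028 and 880 CPM in GMPs, again without overlap (-2.92 ± 0.21, adjusted p = 9.28e-16). The other lectin and disulfide isomerases ranged from -2.31 to -1.60.

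In ER-associated degradation, 8 of 10 genes were lower in O-WT HSCs. Selenos, a selenoprotein of the retrotranslocation complex, averaged 11.6 ± 2.03 CPM in HSCs and 68.5 ± 15 in GMPs (log2 fold change -2.55 ± 0.24, adjusted p = 2.65e-12). Herpud1, which recruits the ubiquitin ligase complex, was at 41.8, 35.6, 34.6 and 41.8 CPM in HSCs and at 86.8, 133, 113 and 78.9 CPM in GMPs. The groups did not overlap (-1.41 ± 0.18, adjusted p = 7.42e-09). Selenok and Derl3 did not pass (-0.19 and -0.68, adjusted p = 0.379 and 0.241). All 3 translocon genes were lower, between -2.38 and -1.80.

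**Figure D2:**
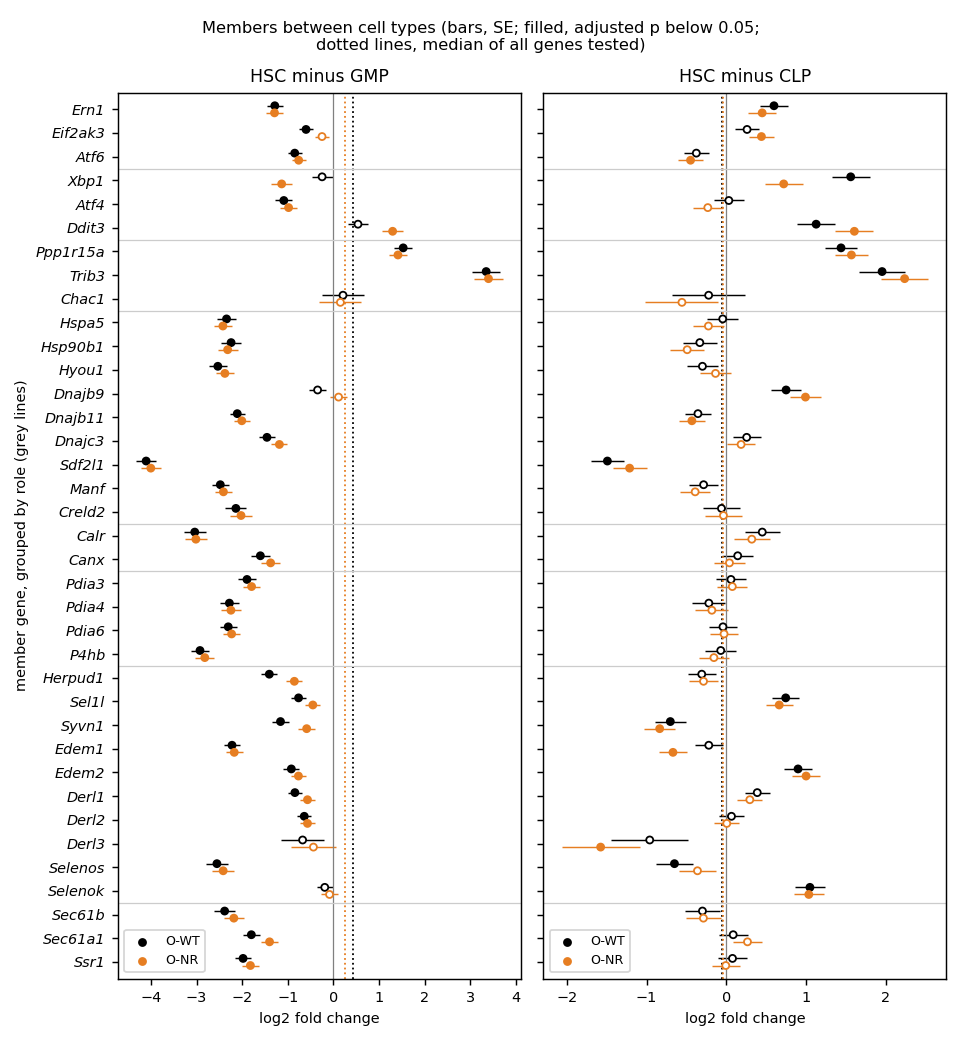
Log2 fold change with its standard error for each gene, HSC minus GMP and HSC minus CLP, in O-WT (black) and O-NR (orange), with filled points at an adjusted p below 0.05 and a dotted line at the median of all genes tested. Most HSC minus GMP points lie far to the left of the dotted lines, at 0.42 in O-WT and 0.26 in O-NR. Only Trib3, Ppp1r15a and, in O-NR, Ddit3 are filled on the right, while HSC minus CLP points spread around 0.

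The same genes were also lower in CLPs than in GMPs. In O-WT, 33 of 37 genes were lower in CLPs (89.2%, background 26.3%) and Trib3 alone was higher (log2 fold change 1.40 ± 0.32, adjusted p = 0.000405, background 32.7%). Trib3 lay below 3 CPM in every O-WT GMP library, and its O-WT CLP and GMP ranges overlapped. In O-NR, 30 genes were lower (background 19.2%) and 1 was higher (background 20.1%). The median of the 37 was -1.81 in O-WT, against 0.46 for all genes. Calr had the largest difference, at 316, 292, 184 and 343 CPM in O-WT CLPs against the 2392 CPM or more of O-WT GMPs (-3.49 ± 0.24, adjusted p = 2.54e-15). P4hb (-2.85), Sdf2l1 (-2.61), Hspa5 (-2.30) and Pdia6 (-2.26), another disulfide isomerase, followed. All 3 sensors and all 3 transcription factors were lower in O-WT CLPs, including Xbp1 (-1.81 ± 0.24), Herpud1 was lower by -1.10 ± 0.17 and Dnajb9 by -1.09 ± 0.19. The 2 smallest of these calls were lost in some alternatives: Ddit3 (-0.59, adjusted p = 0.0315) was not called without O-WT CLP replicate 1 or 3 or O-WT GMP replicate 2 or 4 (adjusted p of 0.0817 to 0.114) or with only the 8 libraries compared (adjusted p = 0.158), nor Atf6 (-0.47, adjusted p = 0.00949) without O-WT CLP replicate 3 (adjusted p = 0.107). With upper quartile scaling neither was called (Ddit3 -0.16, adjusted p = 0.555, and Atf6 -0.03, adjusted p = 0.807). In O-NR the main fit called neither (Ddit3 -0.31 and Atf6 -0.31).

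HSCs and CLPs differed in fewer of these genes. In O-WT, 9 genes were higher in HSCs (24.3%, close to the background of 20.2%) and 3 were lower (8.11%, background 8.52%), with a median of 0.03 against -0.06 for all genes. With upper quartile scaling the split was 9 higher and 14 lower in O-WT, where the median over all genes moved to -0.35, and 7 higher and 17 lower in O-NR. In O-NR the main fit had 10 higher (background 20.5%) and 6 lower (background 11%), and 9 genes, Ern1 among them, were higher in both treatments (background 17.1%) and 2 were lower in both (background 7.11%). The median for all 37 was thus not apart from that of all genes, unlike in the comparisons with GMPs.

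The genes higher in O-WT HSCs than CLPs were led by Trib3, at 5.37, 4.13, 5.16 and 2.04 CPM in CLPs against 10.3 CPM or more in HSCs (log2 fold change 1.95 ± 0.29, adjusted p = 5.44e-07). Xbp1 was at 52.7, 35.8, 25.3 and 44.7 CPM in CLPs and thus below every O-WT HSC library (1.56 ± 0.24, adjusted p = 8.83e-07), with 1.08 ± 0.23 (adjusted p = 0.000297) when O-WT HSC replicate 4 was left out. In O-NR the Xbp1 difference was smaller, 0.72 ± 0.24 (adjusted p = 0.0165), and it was not called with DESeq2 size factors (adjusted p = 0.0554), upper quartile scaling (0.45, adjusted p = 0.124) or the DESeq2 test (adjusted p = 0.0742), or without O-NR HSC replicate 1 or 3 or O-NR CLP replicate 3 (adjusted p of 0.0712 to 0.143). The O-NR values of Xbp1 were also used in the choice of the genes. Ppp1r15a was at 8.32, 11.5, 11.4 and 12.5 CPM in O-WT CLPs, below the 22.7 CPM or more of HSCs (1.44 ± 0.20, adjusted p = 2.08e-07). Ddit3 was at 6.02, 8.27, 7.81 and 7.98 CPM in O-WT CLPs, below every O-WT HSC library (1.1 ± 0.23, adjusted p = 0.000157). Selenok, a selenoprotein of the ER membrane, averaged 57.3 ± 11.8 CPM in HSCs and 27.4 ± 5.11 in CLPs (1.05 ± 0.18, adjusted p = 1.12e-05).

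Dnajb9 was higher in O-WT HSCs than in CLPs, where it stood at 24.3, 18.9, 11.5 and 14.1 CPM (log2 fold change 0.75 ± 0.19, adjusted p = 0.00172, and 0.53 with adjusted p = 0.0619 without O-WT CLP replicate 3). Ern1 was higher by 0.60 ± 0.18 (adjusted p = 0.00742), a call lost in 5 of 15 alternatives: without O-WT HSC replicate 4 or O-WT CLP replicate 3 (adjusted p = 0.0646 and 0.153), with DESeq2 size factors (adjusted p = 0.094), with no filter on low counts (adjusted p = 0.155) and with the DESeq2 test (adjusted p = 0.0501). In O-NR, Ern1 passed narrowly (0.45 ± 0.18, adjusted p = 0.0463) and was not called in 13 of 15 alternatives, among them the replicate block (0.46, adjusted p = 0.0700) and upper quartile scaling (0.18, adjusted p = 0.216). Lower in O-WT HSCs were Sdf2l1 (6.88 ± 2.36 against 19.3 ± 2.78 CPM, -1.49 ± 0.21, adjusted p = 1.26e-07), the ubiquitin ligase Syvn1 (25.9 ± 2.48 against 41.7 ± 9.50 CPM, -0.70 ± 0.19, adjusted p = 0.0038) and Selenos (-0.65 ± 0.23, adjusted p = 0.0311). With a filter at 1 CPM, Syvn1 was not called (-0.57, adjusted p = 0.109). Selenos was not called with that filter (-0.53, adjusted p = 0.208), with no filter (adjusted p = 0.0514) or without O-WT HSC replicate 4, O-WT CLP replicate 1 or O-WT CLP replicate 4 (adjusted p of 0.0554 to 0.146). Hspa5 and Herpud1 did not pass between these cell types in O-WT (-0.05 ± 0.19 and -0.31 ± 0.18, adjusted p = 0.884 and 0.202). Herpud1 passed as lower in HSCs with upper quartile scaling (-0.59, adjusted p = 0.000224) and without O-WT CLP replicate 3 (-0.54, adjusted p = 0.0283).

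Other genes of the secretory pathway, in 8 lists, were compared between O-WT HSCs and GMPs, where 19.4% of all genes tested were lower and 23.7% were higher. Of the oligosaccharyltransferase genes, which attach N-glycans, 9 of 10 were lower in HSCs, such as Magt1 (28.3 ± 2.66 against 131 ± 19.7 CPM, log2 fold change -2.20) and Ddost (48.8 ± 8.91 against 226 ± 49.8 CPM, -2.20). Of the translocon and signal peptidase genes 14 of 15 were lower, such as Spcs3 (-2.49) and Ssr2 (-2.25), and of the ER redox genes 10 of 11 were lower, such as the disulfide oxidase Ero1l (-1.92) and Erp29 (-2.14), and 1 was higher. In the calnexin cycle, 7 of 9 genes were lower, including the glucosidase Mogs (-1.98) and the folding sensor Uggt1 (-1.65), and 1 was higher. Of 16 partners in ER-associated degradation 9 were lower, including Ube2g2 (-1.21) and Nploc4 (-1.08), and 1 was higher. In the UFM1 pathway, which modifies ribosomes at the ER, 6 of 7 were lower, including Ufsp2 (-1.35) and Cdk5rap3 (-1.06), and in the ATF6 family and its proteases 2 of 5, Atf6b (-1.48) and Mbtps2 (-0.50, adjusted p = 0.0464). The 17 genes of the integrated stress response were mixed, with 9 lower, among them Eif2s1 (-1.42), which encodes eIF2-alpha, and 3 higher, among them Ddit4 (8.99 ± 4.29 against 1.28 ± 0.606 CPM, 2.81 ± 0.39, adjusted p = 6.47e-08), a stress-induced inhibitor of mTORC1.

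Set beside the promoter letters, the 11 genes with ERSE or ERSE-II had a median log2 fold change of -2.11 between O-WT HSCs and GMPs, with 10 of 11 lower. The 21 genes with neither had a median of -0.92, with 14 lower and 2 higher, and the 5 without a promoter sequence a median of -1.80. Derl3 was the gene with ERSE that was not called, and Sdf2l1, which had the largest difference, held neither motif in its 300 bases. Between O-WT CLPs and GMPs the medians with and without the motifs were close, at -1.75 and -1.81. These are medians and counts over genes and were not tested.

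With NR, the 4 genes that prompted the choice had lower means in O-NR than in O-WT in each cell type of cohort 2, though by amounts between -0.05 and -1.1 on the log2 scale. All values in the next paragraphs are descriptions, since this comparison chose the genes. Genes with more than 3 CPM in enough libraries numbered 35 in HSCs (not Chac1 or Derl3), 37 in CLPs and 34 in GMPs (not Chac1, Derl3 or Trib3).

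Xbp1 in HSCs was at 90.1, 105, 81.7 and 193 CPM in O-WT and at 68.4, 43.2, 55.2 and 57.7 CPM in O-NR. The groups did not overlap, and the fitted difference of -1.1 ± 0.22 fell to -0.78 ± 0.14 without O-WT HSC replicate 4. Of the 14 plasma and B cell markers summed in that library, Ighm averaged 152 CPM in O-WT HSCs and 5.29 CPM in O-NR HSCs and did not overlap between them. Igkc averaged 110 CPM in O-WT and 30.7 CPM in O-NR and Jchain, which joins secreted antibodies, 14.3 and 6.81 CPM, both with overlap, while the plasma cell genes Mzb1 and Tnfrsf17 and the B cell gene Cd79a stayed between 0 and 1.94 CPM in every HSC library of cohort 2. Xbp1 is abundant in plasma cells, and the part of such cells in its difference was not tested. In CLPs Xbp1 was at 52.7, 35.8, 25.3 and 44.7 CPM in O-WT and 37, 34.3, 17.2 and 46.9 CPM in O-NR, and in GMPs at 134, 173, 151 and 106 against 145, 124, 101 and 126 CPM. Both pairs overlapped.

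Hspa5 in HSCs was at 305, 273, 261 and 357 CPM in O-WT and 243, 174, 215 and 244 CPM in O-NR, again without overlap (log2 fold change -0.50 ± 0.13, and -0.40 ± 0.13 without O-WT HSC replicate 4). Of the 35 genes above the CPM limit in HSCs, Xbp1 and Hspa5 were those with O-NR libraries all below O-WT libraries (5.71%, background 0.674%). Both are among the 4 genes that prompted the choice, so this share is not a test of the set. In CLPs Hspa5 was at 335, 341, 216 and 331 CPM in O-WT and 266, 309, 181 and 263 CPM in O-NR, and in GMPs at 1369, 2052, 1410 and 1292 against 1330, 1130, 944 and 1319 CPM. In both the ranges overlapped, by the 1 low O-WT library in CLPs.

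Herpud1 and Dnajb9 were the genes without overlap in GMPs. Herpud1 in GMPs was at 86.8, 133, 113 and 78.9 CPM in O-WT and 72.3, 70.9, 54.2 and 60 CPM in O-NR (log2 fold change -0.61 ± 0.10). Dnajb9 in GMPs was at 36.9, 45.4, 35.5 and 31.9 CPM in O-WT and 28.7, 30.6, 27.4 and 20.9 CPM in O-NR (-0.41 ± 0.11). Every O-NR GMP library lay below every O-WT GMP library for these 2 of the 34 genes above the CPM limit in GMPs (5.88%, background 0.949%). Both are among the 4 genes that prompted the choice, so this share is likewise no test. In HSCs the differences were -0.17 ± 0.10 for Herpud1 and -0.05 ± 0.14 for Dnajb9, and in CLPs -0.18 ± 0.19 and -0.29 ± 0.23, all with overlap. Whether the NR difference of any gene varied between cell types was not tested.

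**Figure D3:**
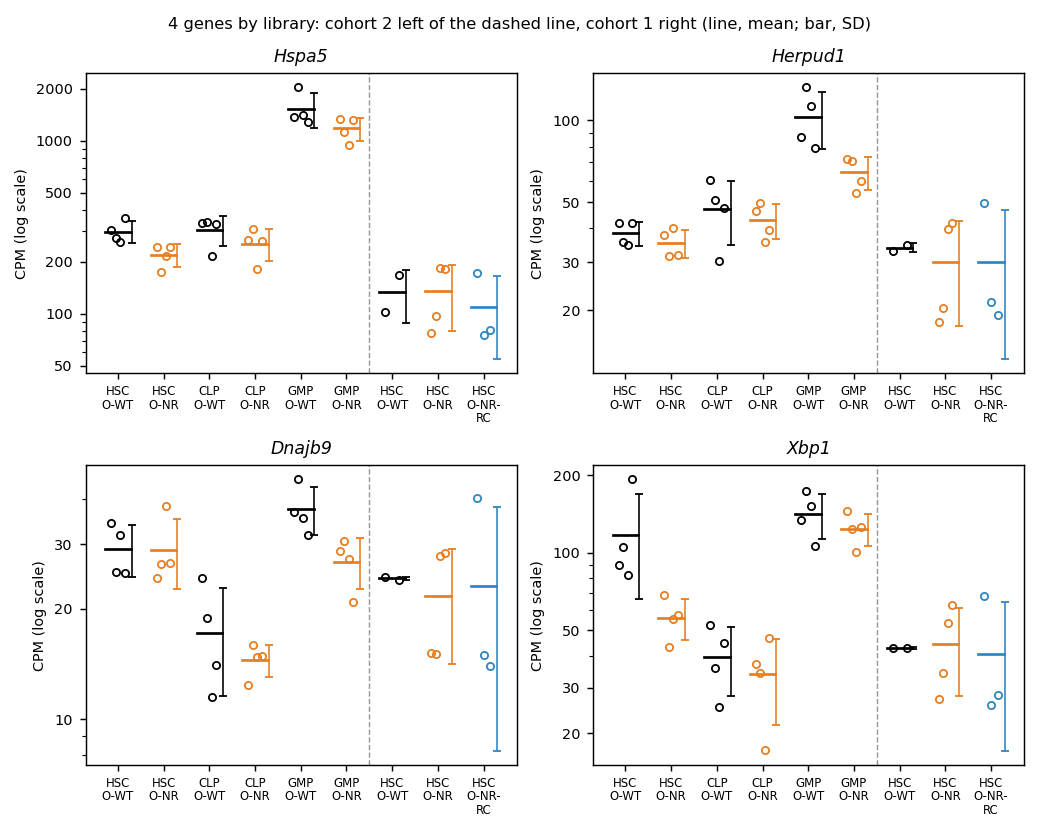
CPM of Hspa5, Herpud1, Dnajb9 and Xbp1 in every library, with cohort 2 left of the dashed line and cohort 1 right of it (line, mean; bar, SD). The O-NR points lie below the O-WT points for Xbp1 and Hspa5 in HSCs and for Herpud1 and Dnajb9 in GMPs of cohort 2, and cohort 1 O-NR and O-NR-RC libraries fall into a low and a high level.

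Over the 37 genes, the log2 fold change with NR was below 0 for 25 of 35 in HSCs (background 54.6%), 23 of 37 in CLPs (background 50.7%) and 29 of 34 in GMPs (background 50.6%). Each count includes the 4 genes that prompted the choice, all below 0, and is therefore not a test of the set. The medians were -0.08, -0.12 and -0.16, against -0.02, -0.00 and -0.00 over all genes. Without O-WT HSC replicate 4 the HSC median was -0.04. The 9 Hsp70 and Hsp90 chaperones and partners, the chosen Hspa5 and Dnajb9 among them, were below 0 in each of the 3 cell types. Creld2, an ER protein induced by stress, was at -0.39, -0.41 and -0.40 and Hsp90b1 at -0.36, -0.19 and -0.19 in HSCs, CLPs and GMPs. Creld2 stood at 31.0 CPM in O-WT HSC replicate 4 and at 17.5 to 19.3 CPM in the other O-WT HSC libraries. Its HSC value without replicate 4, which had the high plasma and B cell marker sum, is not given. The sensors showed small differences, between -0.20 and 0.20, and the translocon genes were above 0 in HSCs and CLPs. Ddit3 was at 0.05 ± 0.16 in HSCs, -0.43 ± 0.34 in CLPs and -0.63 ± 0.24 in GMPs.

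**Figure D4:**
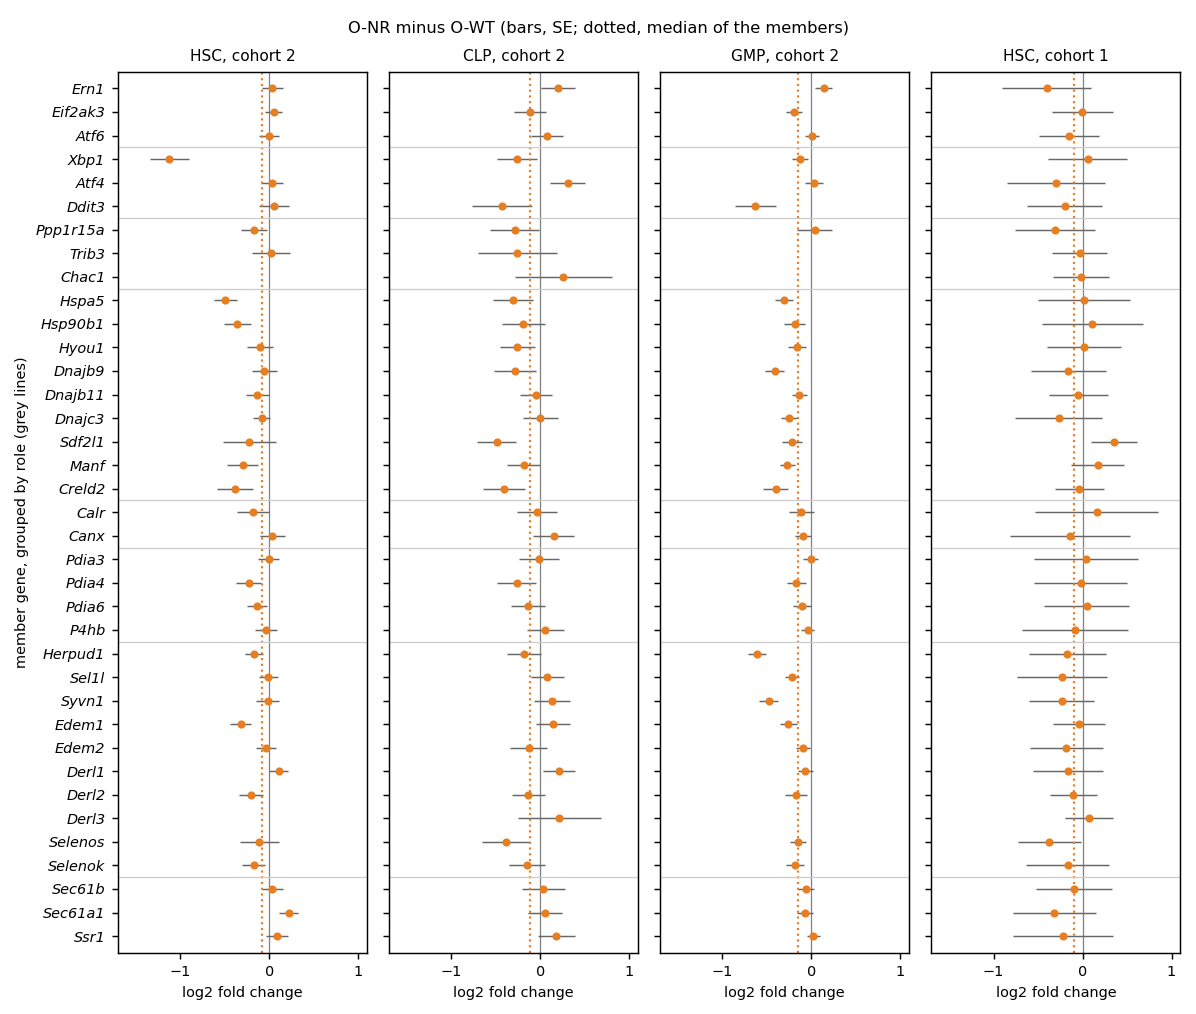
Log2 fold change with its standard error, O-NR minus O-WT, for each gene in HSCs, CLPs and GMPs of cohort 2 and HSCs of cohort 1, with a dotted line at the median of the genes shown. The medians are -0.08, -0.12, -0.16 and -0.09, and the cohort 1 errors are the widest.

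Cohort 1 gave HSCs of the same 2 treatments and of mice after withdrawal. The 4 libraries with high receptor sums had ER gene sums of 1644 to 1859 CPM, and the other 5 had 2893 to 4379 CPM. The means of 35 of the 37 genes were lower in those 4 libraries (all but Chac1 and Derl3), 33 genes had each of the 4 below each of the 5, and the median ratio was 0.511. The summed HSC markers moved with them (764 to 882 against 1509 to 2281 CPM), as did the mitochondrial share of reads (4.59% to 5.29% against 6.69% to 8.14%). The counts of genes with lower means and of genes without overlap were not made over all genes. A lower level in those 4 libraries is thus not shown to be particular to the 37 genes. The split runs inside the O-NR and the O-NR-RC groups, and its part in the cohort 1 comparisons was examined only by leaving those 4 libraries out.

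**Figure D5:**
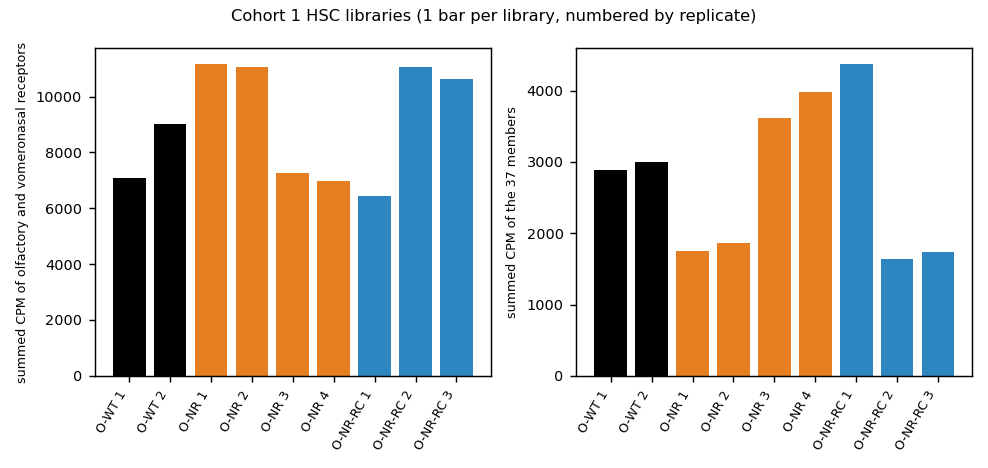
Summed CPM of olfactory and vomeronasal receptor genes (bars, one panel) and of the 37 ER genes (bars, other panel) in the 9 HSC libraries of cohort 1. The 4 libraries above 10000 CPM of receptor genes are the 4 with ER gene sums of at most 1859 CPM.

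Between O-NR-RC and O-NR, 0 of the 37 genes had p below 0.01 in edgeR's quasi-likelihood test (background 0.036%, 12 of 33350 genes), 0 had an unadjusted p below 0.05 (background 0.291%), and DESeq2 also gave 0 at p below 0.01. The 2 groups share the O-NR libraries with the comparison that chose the genes. Xbp1 was at 67.9, 25.8 and 28.2 CPM in O-NR-RC and at 27.1, 34.3, 53.4 and 62.8 CPM in O-NR (log2 fold change -0.13 ± 0.39). Hspa5 was at 173, 75.1 and 80.5 against 78.0, 97.2, 185 and 183 CPM (-0.31 ± 0.46). Both genes split by library type inside each group, and so did Herpud1 (0.00 ± 0.38) and Dnajb9 (0.09 ± 0.37). The smallest p values belonged to Selenos (0.46 ± 0.31), Ern1 (0.22 ± 0.44) and Ppp1r15a (0.16 ± 0.40) above 0 and to Creld2 (-0.29 ± 0.24), Derl3 (-0.28 ± 0.24) and Manf (-0.22 ± 0.26) below 0, each with an adjusted p of 1. Without O-NR-RC replicate 1, the O-NR-RC library of low receptor sum, the values above 0 turned to -0.05 (Selenos), -0.40 (Ern1) and -0.41 (Ppp1r15a), and those of Herpud1 and Dnajb9 to -0.55 and -0.57. Standard errors over the 37 genes ran from 0.23 to 0.61, so differences of that order were not detectable.

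With only the 5 libraries of low receptor sum, a choice made after seeing the data, 3 of the 37 genes had p below 0.01 between O-NR-RC and O-NR, all higher in O-NR-RC. These were Selenos, with a log2 fold change of 0.73, Atf4 with 0.54 and Ern1 with 0.58. That fit holds 1 O-NR-RC library, which is assumed to vary like the others, and 1106 of all 28275 genes tested passed the same limit.

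For O-NR against O-WT in cohort 1, 27 of 37 genes were below 0 (background 50.9%) with a median of -0.09, and Derl2, a derlin of ER-associated degradation, was the gene with O-NR libraries all below O-WT (32.1, 31.8, 35.0 and 33.5 against 35.4 and 35.8 CPM, background 2.83%). With the 5 low-receptor libraries, a choice made after seeing the data, 31 of 37 were above 0 with a median of 0.21, against -0.05 over all genes. The share of all genes above 0 in that fit is not given. The median of the 37 genes also turned to 0.03 without O-NR replicate 1. Hspa5 was at 102 and 167 CPM in O-WT, Herpud1 at 33.0 and 34.9, Dnajb9 at 24.4 and 24 and Xbp1 at 42.9 and 42.6 CPM, each inside the range of the 4 O-NR libraries. Fitted differences for these 4 genes were 0.02 ± 0.52, -0.17 ± 0.43, -0.16 ± 0.42 and 0.06 ± 0.44.

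Hspa5 (chr2:34771970-34777547, + strand), Herpud1 (chr8:94386438-94395377, +), Dnajb9 (chr12:44205559-44210326, -) and Xbp1 (chr11:5520659-5525893, +) are placed on GRCm38 by Gencode, and counts were summed over the exons of each gene. Exons of Hsp90b1, Sec61a1 and Eif2ak3 overlap genes on the opposite strand over 10.3%, 8.16% and 8.05% of their length, and since the strand setting of the counting was not given in the sources used here, their reads cannot be told apart from those genes' reads there. The symbol Ddit3 has 2 positions in the annotation, so its level is uncertain.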

How the data were processed

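Total RNA of sorted cells was made into stranded libraries (SMARTer Stranded Total RNA-Seq Kit v2), and per the labels and the study's methods the authors trimmed reads with cutadapt, aligned them to mm10 with STAR and deposited counts per gene from featureCounts on Gencode M22. The deposited counts are raw whole numbers. Strand setting, multi-mapping rule and the NR dose of the aged mice were not given in the sources used here. In total RNA, reads of introns outside annotated exons are not counted, and each level is a share of counted reads.

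Each cohort was fitted whole with edgeR 4.0.16 in R 4.3.3 (quasi-likelihood test, TMM scaling, Benjamini-Hochberg over all genes tested). CPM were computed with the same scaling. A gene was tested where its CPM was above 3 in 4 or more of the 24 libraries of cohort 2 (cell types), in 2 or more of the 9 of cohort 1, and, for O-NR against O-WT in cohort 2, in 4 or more of the 8 of the cell type, fitted alone. Cell types used an adjusted p below 0.05 and withdrawal an unadjusted p below 0.01, p limits taken from the study, whose fold limit of 1.5 was not used in the calls and was tried as an alternative. Alternatives were DESeq2 1.42.0, other scalings, other CPM limits, a replicate block, only the compared libraries and leaving out each library. The fits were tested on simulated data.

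The genes and lists were chosen with earlier results of these data known. Named genes are the 4 that prompted the choice, the sensors and factors, up to 5 called genes per cell type comparison and direction with the largest change and the same sign in O-NR, up to 3 per direction by p for withdrawal, 2 per pathway list by p, genes under the CPM limit and genes without overlap between O-NR and O-WT. Deposited names give same-numbered HSC, CLP and GMP libraries of a treatment a shared number, taken here as the same mouse. Deviations of same-numbered libraries correlated on average at 0.33 (HSC and CLP), -0.20 (HSC and GMP) and -0.15 (CLP and GMP) in O-WT and at -0.12, -0.09 and 0.17 in O-NR. No pair of replicates agreed within sampling noise (smallest chi-square per degree of freedom 1.96). In cohort 1 this measure was 1.96 for O-NR replicates 1 and 2, 3.84 for O-NR 3 and 4 and 4.02 for O-NR-RC 2 and 3. Pairs of a high and a low receptor library in these groups ran from 53.1 to 102, so the replicates form clusters. Standard errors and SDs measure the spread between these libraries only. Gene positions come from Gencode M21 and promoters from RefSeq (GRCm38.p6). Protein sequences were not used here.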

Additional observations from a re-analysis of the deposited data

Results flagged for a closer look

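In 161 combinations of a named gene and a group of 4 libraries, 10 had 1 library far from the other 3, by the gap to the nearest value as a share of the range. Chance flags about 1 in 20 groups, so 10 of 161 is near what chance gives, and the cause of each was not tested.

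Among O-WT HSCs, Creld2 was highest in replicate 4 (31.0 CPM, gap share 0.868), the library with the high plasma and B cell marker sum, Ern1 in replicate 1 (148 CPM, 0.882) and Derl3 in replicate 3 (3.58 CPM, 0.898). Among O-WT CLPs, replicate 3 was lowest for Hspa5 (216 CPM, 0.918) and for Derl2 (24.9 CPM, 0.855), and this is the library with the fewest reads of all 33, 4792380. Manf was lowest in O-NR CLP replicate 3 (34.0 CPM, 0.835). Among O-WT GMPs, replicate 2 was highest for Hspa5 (2052 CPM, 0.845) and Manf (292 CPM, 0.895), and it also had the highest sum of the 37 genes, 19003 CPM. Among O-NR GMPs, Derl2 was lowest in replicate 4 (32.2 CPM, 0.905) and Syvn1 in replicate 3 (32.9 CPM, 0.972).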

How the results depend on the processing

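Upper quartile scaling raised the genes called between HSCs and CLPs in O-WT from 12 to 23, and with only the 5 cohort 1 libraries of low receptor sum, chosen after seeing the data, 3 genes passed for O-NR-RC against O-NR in place of 0. The other counts and medians over the 37 genes stayed within 1.5 times the reported count, or within their spread, in 165 checks. Leaving out single libraries gave 11 to 14 genes called between HSCs and CLPs, 31 to 32 between HSCs and GMPs and 31 to 34 between CLPs and GMPs in O-WT, 12 to 17, 31 to 32 and 31 to 32 in O-NR, and 0 to 0 for withdrawal. The lowest and highest medians with NR were -0.12 and -0.04 (HSCs), -0.17 and -0.04 (CLPs), -0.19 and -0.09 (GMPs) and -0.24 and 0.03 (cohort 1). With the replicate block, 32 genes were called between HSCs and GMPs in O-WT and 12 between HSCs and CLPs. Apart from Ddit3 and Ern1, given above, the block changed no call of a named gene. O-NR and O-WT libraries share only a number, and the median in cohort 1 was -0.37 with the block. With the fold limit, 12 genes in place of 16 were called between HSCs and CLPs in O-NR. Of 1109 alternative values for single named genes that were called, 0 changed sign and 55 lost the call. Of 450 for genes tested and not called, 43 changed sign and 26 gained a call, and of 508 with no test 46 changed sign. The sign changes among tested genes follow, with the cause not tested. Between HSCs and CLPs in O-WT, Atf4 (0.03) turned to -0.011 with DESeq2 size factors and with the DESeq2 test, -0.25 with upper quartile scaling and -0.028 with only the 8 libraries compared, Eif2ak3 to -0.021 with upper quartile scaling and Hspa5 to 0.10 with a filter at 1 CPM. Between HSCs and GMPs in O-NR, Dnajb9 (0.11) turned to -0.090 with DESeq2 size factors and with the DESeq2 test and -0.064 with no filter. For O-NR-RC against O-NR, upper quartile scaling turned Herpud1 to -0.028 and Eif2ak3 to -0.0046, the replicate block turned Xbp1 to 0.023 and Ddit3 to 0.070, and the 5 low-receptor libraries turned Xbp1 to 0.14, Atf6 to 0.034 and Ddit3 to 0.015. Leaving out single libraries gave -0.20 to 0.14 for Atf4 between HSCs and CLPs in O-WT and -0.23 to 0.18 for Dnajb9 between HSCs and GMPs in O-NR. For withdrawal it gave -0.55 to 0.23 for Herpud1, -0.57 to 0.34 for Dnajb9, -0.71 to 0.11 for Xbp1, -0.40 to 0.46 for Ern1, -0.29 to 0.14 for Eif2ak3, -0.76 to 0.46 for Atf4, -0.62 to 0.13 for Ddit3, -0.054 to 0.71 for Selenos and -0.41 to 0.40 for Ppp1r15a. CLPs were the shallowest libraries, and a gene at the limit of 3 CPM had few reads there.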
